A study of Mus musculus with 54 samples.

Results

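The genes examined were 7 genes of GABA metabolism and chloride transport in the suprachiasmatic nucleus (SCN), the hypothalamic pacemaker. They were chosen by symbol, and each matched exactly 1 Ensembl gene of the 30031 genes in the count table. They comprised the GABA-synthesising enzymes Gad1 and Gad2, the vesicular transporter Slc32a1, the uptake carrier Slc6a11, the degrading enzyme Abat, and the chloride cotransporters Slc12a2 and Slc12a5. All 7 were among the 18941 genes that were tested, because more than 6 replicates held a read of them. Their counts ranged from 418 to 36471 in a library.

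The study took male C3H/HeH mice aged 10–12 weeks at 6 zeitgeber times (ZT, hours after lights on) of a light/dark cycle, namely ZT2, ZT6 and ZT10 in the light and ZT14, ZT18 and ZT22 in the dark. No genotype or drug differed between the groups. Each of the 3 replicates of a timepoint was RNA from laser-captured, Nissl-stained SCN tissue pooled from 5 animals and amplified with the SMARTer protocol, so that differences between single animals were not measured. The 3 sequencing lanes of a replicate shared 1 column of counts, with 15412981 to 35820945 counts in a library.

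Almost all SCN neurones use GABA as a transmitter. It is made from glutamate by the 2 glutamate decarboxylases GAD67 (Gad1) and GAD65 (Gad2), is loaded into synaptic vesicles by VGAT (Slc32a1), is cleared by transporters that include GAT3 (Slc6a11) of astrocytes, and is broken down by GABA transaminase (Abat). Whether GABA inhibits or excites a neurone depends on its internal chloride, which NKCC1 (Slc12a2) raises and KCC2 (Slc12a5) lowers, and in the SCN both actions of GABA have been described.

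The libraries fell into 3 clusters, each a pair of timepoints: ZT14 and ZT18, ZT22 and ZT2, and ZT6 and ZT10. The study's own plot of these clusters names timepoint and sequencing batch together, but the labels give no batch for any library. Whether the pairs are batches was therefore not tested, and if they are, timepoint and batch cannot be told apart between pairs. Each test over all 6 timepoints was set beside the differences inside a pair. Marker genes of SCN neurones were present in every library, and the summed level of the 8 of them was 4866 CPM (the count scaled to library size) ± 243 (SD, n = 3) at ZT6 and 4403 ± 386 at ZT10, against means of 1563 to 2609 at the other timepoints. The 8 astrocyte markers went the other way, with 1494 ± 188 at ZT6 and 1407 ± 131 at ZT10 and means of 1747 to 2296 elsewhere. The 8 markers of neurones in general were also lowest there (4161 ± 721 and 4724 ± 65.4, against 5530 to 8843), and the 8 oligodendrocyte markers were highest at ZT14 and ZT18 (5343 ± 611 and 5464 ± 581, against 1887 to 3078). The markers themselves changed with time: 7 of the 8 for SCN neurones, astrocytes and neurones in general, and all 8 for oligodendrocytes. Among the SCN neurone markers, Avp ranged from 3.12 to 478 CPM and Prok2 from 1.28 to 303 in single libraries. Their sum is therefore no fixed measure of SCN neurone content. In these bulk samples, fewer cells of a type and less RNA per cell cannot be told apart. The 2 deposited tables also differed at these timepoints. The reads in the normalised table equalled the counts for 36.8% to 47.1% of shared genes in the libraries of ZT6 and ZT10, with a median log2 ratio of -0.13 to -0.11, and for 94.7% to 96.3% in the other libraries. With those reads, 4 of the 7 genes changed with time, the same number as with the counts.

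**Figure D1:**
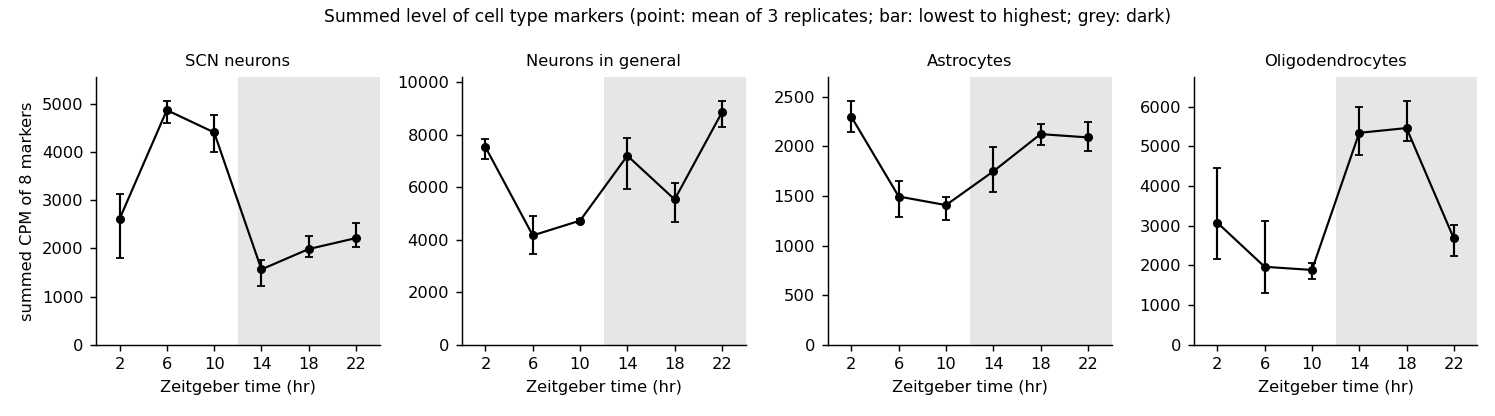
Summed CPM of 8 marker genes of each cell type (y axis) against zeitgeber time in hours (x axis), with points for the mean of 3 replicates, bars from the lowest to the highest replicate and grey for the dark phase. SCN neurone markers peaked at ZT6 and ZT10, where astrocyte markers were lowest.

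Of the 7 genes, 4 changed over the 6 timepoints, namely Gad2, Slc32a1, Abat and Slc12a5, against a background of 44% of all tested genes. The same 4 differed between the pairs of timepoints, where the background was 54%. They were also the 4 called cycling, that is, they passed both the time test and JTK_CYCLE (a rank test for a 24 hr rhythm), against 29.9% of all tested genes. The JTK_CYCLE p was adjusted over the 6 lags (peak times) tried, but not over genes. Gad2, Slc32a1 and Slc12a5 were highest at ZT6, whereas Abat was lowest at ZT10. With so high a background, these counts say little that is particular to the 7 genes. Without the ZT6 and ZT10 libraries, 1 of the 7 changed with time, Slc12a5, against 28.6% of all tested genes in that fit. The ratio of the highest to the lowest timepoint mean had a median of 1.11 on the log2 scale over the 7 genes, and of 1.51 over the tested genes whose mean count was 10 or more. The 2 sets were not matched for level, the 7 genes having at least 418 counts in every library, so the medians do not rank their variation.

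**Figure D2:**
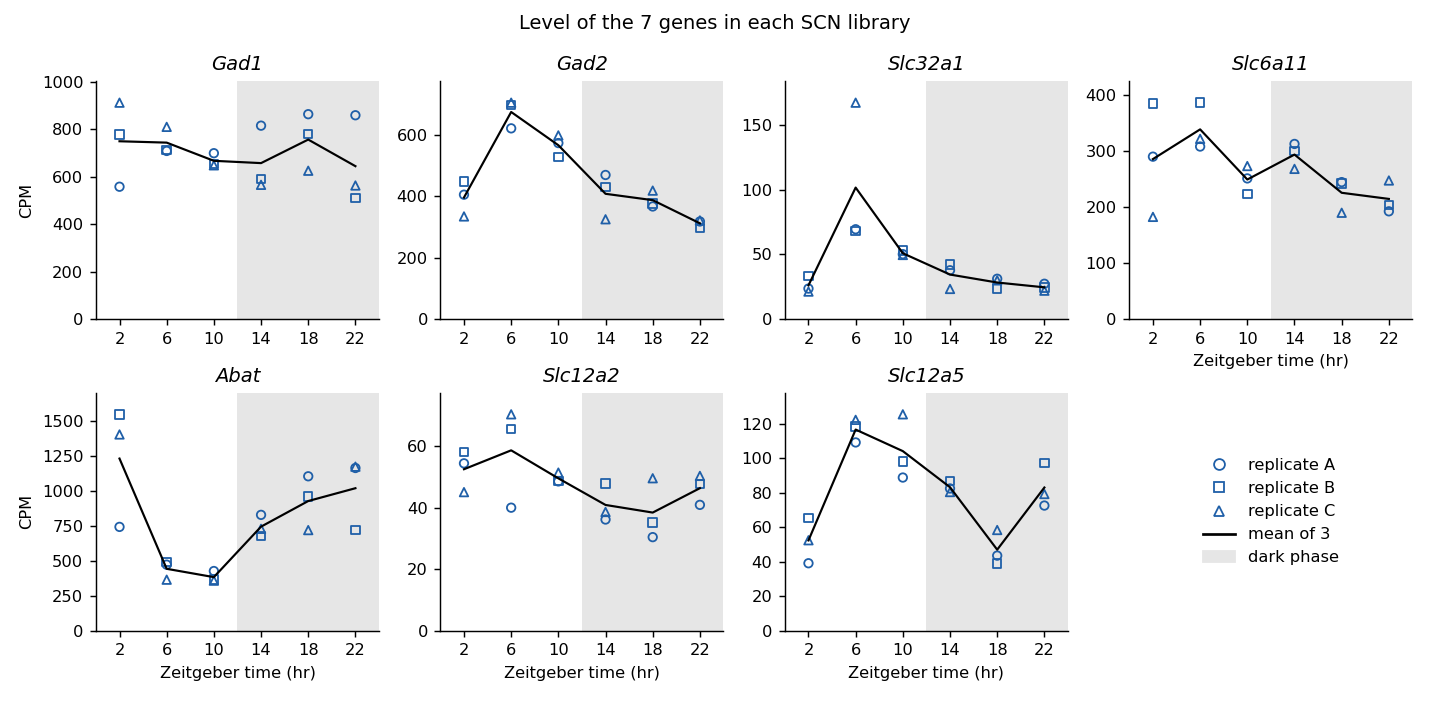
CPM (y axes from 0) of each of the 7 genes in each of the 18 libraries against zeitgeber time in hours, with open symbols for the replicates, a line for the mean of 3 and grey for the dark phase. Gad2, Slc32a1 and Slc12a5 were highest at ZT6, Abat was lowest at ZT6 and ZT10, and the replicates of Gad1 spread as widely as its timepoints.

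Compared per kb of exon, the genes fell into an abundant and a scarce set. At ZT2 the mean level was 159 CPM per kb for Abat, 98.2 for Gad1, 67.4 for Gad2 and 56.5 for Slc6a11, but 9.34 for Slc32a1, 7.04 for Slc12a5 and 4.81 for Slc12a2. At ZT6 the order at the top had changed: Gad2 had 115 CPM per kb ± 7.88 (SD, n = 3), Gad1 97.4 ± 7.54, Slc6a11 67.0 ± 8.27 and Abat 57.3 ± 8.79. The enzymes of GABA synthesis and breakdown thus exceeded both chloride cotransporters at every timepoint. Slc32a1 rose to 36.4 ± 20.3 CPM per kb at ZT6, which still was under each of the 4 abundant genes, and Slc12a2 was the lowest of the 7 at every timepoint. That last rank depends on exon length. Not scaled by length, Slc32a1 had a lower mean than Slc12a2 at ZT2 (26.1 against 52.5 CPM), ZT14, ZT18 and ZT22, though not at ZT6 or ZT10.

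GABA synthesis was covered by 2 genes, of which Gad2 passed the time test and Gad1 did not. Whether their courses differed was not tested. Gad1 (ENSMUSG00000070880, chromosome 2, 70553072–70602014, plus strand, GRCm38) encodes the decarboxylase that supplies most of the GABA of a cell. In the light its levels were 558, 779 and 913 CPM in replicates A, B and C of ZT2, 709, 713 and 811 at ZT6, and 700, 654 and 648 at ZT10. In the dark they were 816, 592 and 566 at ZT14, 864, 781 and 626 at ZT18, and 860, 512 and 563 at ZT22. The replicates of ZT2 and ZT22 together spanned the range of all 18 libraries, and the highest timepoint (ZT18, 757 ± 121) overlapped the lowest (ZT22, 645 ± 188). Neighbours in the order ZT18, ZT2, ZT6, ZT10, ZT14 and ZT22 overlapped except ZT6 and ZT10. No change with time was detected for Gad1 (ratio of highest to lowest mean 1.17, adjusted p = 0.821).

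Gad2 (ENSMUSG00000026787, chromosome 2, 22622205–22693874, plus strand) encodes the decarboxylase bound to synaptic terminals. Its levels were 405, 449 and 334 CPM at ZT2, 621, 698 and 705 at ZT6, and 573, 527 and 598 at ZT10. Through the dark they were 469, 430 and 325 at ZT14, 367, 377 and 419 at ZT18, and 318, 297 and 321 at ZT22. The 3 replicates of ZT6 lay above every other library, and those of ZT10 lay above all 12 libraries of the other 4 timepoints. ZT14, ZT2 and ZT18 overlapped in turn, and the ZT22 replicates lay below those of ZT18. The ZT6 mean was 2.16 times the ZT22 mean, and the change with time passed the test (adjusted p = 0.000108, exact JTK_CYCLE p = 0.00224, peak at ZT10). Without the ZT6 and ZT10 libraries the highest to lowest ratio was 0.39 on the log2 scale (adjusted p = 0.244).

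Per kb of exon, the order of the 2 decarboxylases changed. Gad1 exceeded Gad2 per kb in all 12 libraries of ZT2, ZT14, ZT18 and ZT22, with mean ratios of 1.44, 1.24, 1.49 and 1.55. At ZT6 and ZT10 the mean ratio was 0.848 and 0.907, and Gad2 was the higher in all 6 libraries. Which of the 2 was higher depended on the exon length used, 7639 bases for Gad1 and 5876 for Gad2. Not scaled by length, Gad1 had the higher mean at ZT6 (744 against 675 CPM) and at ZT10 (668 against 566). The ratios are given without a test.

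Slc32a1 (ENSMUSG00000037771, chromosome 2, 158610767–158615748, plus strand) encodes VGAT, the carrier that fills vesicles with GABA or glycine. Its levels were 23.6, 33.4 and 21.3 CPM at ZT2, 69.5, 68.3 and 167 at ZT6, and 50.2, 53.0 and 49.6 at ZT10. In the dark it had 37.8, 42.3 and 23.3 CPM at ZT14, 31.2, 23.8 and 30.0 at ZT18, and 27.4, 24.4 and 22.0 at ZT22. Every ZT6 library was above every ZT10 library, and every ZT10 library was above the 12 others, among which ZT14, ZT18, ZT2 and ZT22 overlapped in turn. In Slc32a1 the ZT6 mean was 4.14 times the ZT22 mean, the widest range of the 7 genes (adjusted p = 7.47e-05, exact JTK_CYCLE p = 0.0239, peak at ZT10). Replicate C of ZT6 carried much of that width, and leaving out that library took the ratio from 2.05 to 1.49 on the log2 scale, below the 1.68 of Abat, the change with time still passing the test. Leaving out ZT14 replicate A or B, or ZT22 replicate C, ended the cycling call (exact JTK_CYCLE p = 0.0620, 0.0620 and 0.0662). Without ZT6 and ZT10 the ratio was 0.49 (adjusted p = 0.426).

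Slc32a1 and the antisense gene Gm14205 share 697 exonic bases, or 24.9% of the exonic length of Slc32a1. Gm14205 had 3 counts over all 18 libraries. Relative to Gad2, per kb, Slc32a1 stood at 0.289 at ZT6 and 0.189 at ZT10, at 0.174, 0.153 and 0.165 at ZT14, ZT18 and ZT22, and lowest at ZT2 with 0.137, again without a test. The highest single ratio, 0.499, was that of ZT6 replicate C.

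The uptake carrier Slc6a11 (ENSMUSG00000030307, chromosome 6, 114131241–114249952, plus strand), an astrocytic GABA transporter, moved less. It had 290, 384 and 182 CPM at ZT2, 308, 386 and 321 at ZT6, and 251, 223 and 273 at ZT10. The dark values were 312, 300 and 268 at ZT14, 244, 242 and 190 at ZT18, and 192, 204 and 247 at ZT22. The ZT2 replicates spanned almost the full range, and each timepoint overlapped the next in the order ZT6, ZT14, ZT2, ZT10, ZT18 and ZT22. The change with time missed the threshold (ratio of highest to lowest mean 1.58, adjusted p = 0.0941), but it passed without ZT2 replicate B (adjusted p = 0.047) or C (0.00501). Slc6a11 was also the member whose reads differed most between the 2 deposited tables. Its reads in the normalised table were 21.2% to 30.7% fewer at ZT6 and ZT10 and equal at the other timepoints, and on those reads the ZT6 mean was 283 CPM ± 48.4 (SD, n = 3) and the ZT14 mean 278 ± 21.5.

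Against the other timepoints, the degrading enzyme was low at ZT6 and ZT10, where Gad2 was high. Abat (ENSMUSG00000057880, chromosome 16, 8513429–8621568, plus strand), the mitochondrial transaminase that starts GABA breakdown, had 744, 1550 and 1405 CPM at ZT2, 473, 492 and 366 at ZT6, and 428, 366 and 359 at ZT10. In the dark it had 830, 677 and 730 CPM at ZT14, 1106, 960 and 721 at ZT18, and 1165, 722 and 1175 at ZT22. All 6 libraries of ZT6 and ZT10 lay below all 12 others, while ZT2, ZT22, ZT18 and ZT14 overlapped in turn. The ZT2 mean was 3.21 times the ZT10 mean (adjusted p = 0.000124, exact JTK_CYCLE p = 0.00150, peak at ZT22). Summed markers of astrocytes, neurones in general, oligodendrocytes and microglia all had their lowest means at ZT6 and ZT10. For microglia these were 133 and 130 CPM, against means of 165 to 221 elsewhere. The part of these cells in the level of Abat was not tested. Without ZT6 and ZT10 the highest to lowest ratio of Abat was 0.73 on the log2 scale (adjusted p = 0.216).

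Gad2 was high and Abat low at ZT6 and ZT10 against the other timepoints. Inside pairs, their log2 differences had the same sign in ZT22 minus ZT2 (-0.34 and -0.27) and ZT6 minus ZT10 (0.25 and 0.21). In ZT14 minus ZT18 the signs differed (0.08 and -0.32). With pair means subtracted from log2 CPM, the Pearson r of the genes over the 18 libraries was 0.16. The ratio of Gad2 to Abat per kb had a mean of 2.02 at ZT6 (1.73 to 2.54 over 3 libraries) and 1.95 at ZT10 (1.77 to 2.20). At the other timepoints every library was below 1, with means of 0.716 at ZT14, 0.558 at ZT18, 0.413 at ZT22 and 0.442 at ZT2. These ratios carry no test, since they were formed from genes whose course over time had been seen.

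Chloride loading and extrusion were carried by genes of different course. Slc12a2 (ENSMUSG00000024597, chromosome 18, 57878678–57946821, plus strand), which encodes the chloride importer NKCC1, had 54.4, 58.0 and 45.0 CPM at ZT2, 40.0, 65.6 and 70.3 at ZT6, and 48.5, 48.7 and 51.4 at ZT10. Its dark values were 36.1, 47.9 and 38.6 at ZT14, 30.4, 35.2 and 49.6 at ZT18, and 40.9, 47.8 and 50.3 at ZT22. The highest timepoint, ZT6, overlapped the lowest, ZT18, and every timepoint overlapped its neighbour in the order of means. No change with time was detected (ratio of highest to lowest mean 1.53, adjusted p = 0.191), although the test passed without ZT6 replicate A (adjusted p = 0.0419). NKCC1 is also made by the choroid plexus, and 4 markers of choroid plexus and ependyma summed to between 2.9 and 3343 CPM in single libraries. At ZT6 that sum was 69.7, 2705 and 12.6 CPM in replicates A, B and C, whose Slc12a2 levels were 40.0, 65.6 and 70.3 CPM. The part of choroid plexus RNA in the level of Slc12a2 was not tested.

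Slc12a5 (ENSMUSG00000017740, chromosome 2, 164960802–164999731, plus strand) encodes KCC2, the chloride exporter of neurones. It had 39.2, 65.6 and 52.5 CPM at ZT2, 109, 119 and 122 at ZT6, and 88.9, 98.2 and 126 at ZT10. In the dark it had 82.6, 86.8 and 80.5 CPM at ZT14, 43.6, 39.1 and 58.5 at ZT18, and 72.7, 97.4 and 79.3 at ZT22. The libraries of ZT2 and ZT18 were the 6 lowest of the 18, and every library of ZT6, ZT10, ZT14 and ZT22 was above them. ZT6 overlapped ZT10, ZT14 overlapped ZT22, and ZT2 overlapped ZT18, whereas ZT10 and ZT14 did not overlap. The ZT6 mean was 2.48 times the ZT18 mean (adjusted p = 0.000195). Its replicates did not overlap between ZT14 and ZT18, nor between ZT22 and ZT2, and it was the only one of the 7 genes to pass the time test without ZT6 and ZT10 (adjusted p = 0.0151). Some sums of neurone markers differed in the same direction inside these pairs. The 4 markers of telencephalic excitatory neurones (none of them at 0 in any library) summed to 86.9 to 191 CPM at ZT14 against 24.1 to 59.6 at ZT18, and to 55.5 to 217 at ZT22 against 39.1 to 80.9 at ZT2. The 8 markers of neurones in general summed to 5941 to 7869 CPM at ZT14 against 4658 to 6159 at ZT18, and to 8268 to 9258 at ZT22 against 7061 to 7828 at ZT2. At ZT6, where Slc12a5 was highest, both sums had their lowest means (14.9 and 4161 CPM). By their means, the 8 SCN neurone markers went the other way inside both pairs. They summed to 1563 CPM at ZT14 against 1986 at ZT18, and to 2212 at ZT22 against 2609 at ZT2. Slc17a6, a marker of hypothalamic excitatory neurones, averaged 32.6 CPM at ZT14 against 55.3 at ZT18, and 55.4 at ZT22 against 31.4 at ZT2. The part of these cells in the level of Slc12a5 was not tested. Its cycling call (exact JTK_CYCLE p = 0.0421, peak at ZT6) was lost when any of 8 single libraries was left out, namely any ZT6 or ZT18 replicate or replicate A or B of ZT10 (exact p = 0.0815 to 0.113).

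The counts of Slc12a5 combine transcripts from its 2 promoters, which give the KCC2a and KCC2b forms of the protein. Since this gene differed most inside the pairs of timepoints, the 250 bases before each of its starts (RefSeq, GRCm38.p6, plus strand, 5′ to 3′, the starts lying 7142 bases apart) are shown. Slc6a11 follows, as the member with the most motif matches. Capitals mark matches to the motifs searched.
Slc12a5, upstream start, chr2:164960596-164960845: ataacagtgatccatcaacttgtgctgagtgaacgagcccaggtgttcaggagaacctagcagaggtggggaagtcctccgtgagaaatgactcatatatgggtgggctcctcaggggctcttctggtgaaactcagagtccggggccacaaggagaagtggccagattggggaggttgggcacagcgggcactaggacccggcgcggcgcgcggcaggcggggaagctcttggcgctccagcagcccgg
Slc12a5, downstream start, chr2:164967738-164967987: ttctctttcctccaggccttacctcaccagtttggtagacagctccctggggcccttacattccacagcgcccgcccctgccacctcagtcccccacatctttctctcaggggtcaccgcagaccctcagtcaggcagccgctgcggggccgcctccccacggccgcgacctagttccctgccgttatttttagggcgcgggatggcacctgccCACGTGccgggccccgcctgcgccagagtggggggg
Slc6a11, chr6:114130991-114131240: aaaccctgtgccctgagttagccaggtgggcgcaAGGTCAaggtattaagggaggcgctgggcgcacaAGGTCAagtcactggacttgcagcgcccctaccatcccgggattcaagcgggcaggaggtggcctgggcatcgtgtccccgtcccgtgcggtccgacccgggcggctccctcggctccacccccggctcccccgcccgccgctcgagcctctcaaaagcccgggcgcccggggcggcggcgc

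Promoters were matched for 5 of the 7 genes (Gad1, Gad2, Slc32a1, Slc6a11 and Slc12a5, with 6 promoters), the others being Abat and Slc12a2. Each 250-base window was searched on both strands for 4 short motifs: the E-box CACGTG that CLOCK and BMAL1 bind, the cAMP response element TGACGTCA, the D-box TTATGTAA and the nuclear receptor element AGGTCA. The downstream Slc12a5 promoter held 1 E-box, 36 bases before the start. Of 32851 promoters in the table, 6.02% held that motif, so a single match among 6 windows is common. Slc6a11 held AGGTCA at 2 places, 216 and 182 bases before its start, a motif found in 14.0% of all windows. The windows of Gad1, Gad2, Slc32a1 and the upstream start of Slc12a5 held none of the 4 motifs, TGACGTCA being present in 1.55% and TTATGTAA in 0.819% of all windows. The matches are letters in a sequence and were not tested for binding.

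The balance of the chloride cotransporters was taken as the log2 ratio of Slc12a2 to Slc12a5 counts per kb within each library, which does not depend on the scaling of the library. Per kb of exon, Slc12a5 exceeded Slc12a2 in all 18 libraries. The distance from parity depends on the exon lengths used, 10920 bases for Slc12a2 and 7447 for Slc12a5. Not scaled by length, Slc12a2 had more counts than Slc12a5 in ZT2 replicate A (962 against 693). The log2 ratio was -0.08, -0.73 and -0.77 in replicates A, B and C of ZT2, -2.002, -1.41 and -1.35 at ZT6, and -1.43, -1.57 and -1.84 at ZT10. In the dark it was -1.74, -1.41 and -1.61 at ZT14, -1.07, -0.70 and -0.79 at ZT18, and -1.38, -1.58 and -1.21 at ZT22. The 6 libraries of ZT2 and ZT18 therefore lay nearest to parity and above the other 12.

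The timepoint means of this log2 ratio ranged from -1.61 ± 0.21 (SD, n = 3) at ZT10 to -0.53 ± 0.39 at ZT2. Expressed as a ratio, Slc12a2 stood at 0.694 of Slc12a5 at ZT2 and 0.553 at ZT18, against 0.327 to 0.382 at the other timepoints. The range of 1.08 was larger than the spread between replicates (permutation test of F over the 18 libraries, 100000 resamples, p = 0.00072). It was 1.06 without the ZT6 and ZT10 libraries (permutation p = 0.0012), and leaving out any single library gave 0.86 to 1.21 (permutation p = 0.00037 to 0.00278).

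Inside the pairs, the ratio was 0.73 lower at ZT14 than at ZT18 and 0.86 lower at ZT22 than at ZT2 on the log2 scale, with no overlap of replicates in either pair. The telencephalic markers had means of 126 and 39.9 CPM at ZT14 and ZT18 and of 143 and 57.9 at ZT22 and ZT2. Those of neurones in general had 7194 and 5530, and 8843 and 7519. The SCN neurone markers went the other way, with 1563 and 1986, and 2212 and 2609. Slc17a6 had 32.6 and 55.3 CPM, and 55.4 and 31.4. The part of these cells in the ratio was not tested. Both differences of the ratio had an exact permutation p = 0.1, the smallest that 3 libraries against 3 allow. ZT6 and ZT10 differed by 0.02 (exact permutation p = 0.9). No difference in the balance was detected between the phases of the light cycle. Its mean was -1.28 ± 0.36 (SD, n = 9) in the dark and -1.24 ± 0.61 in the light, with a difference of -0.04 (two-sided exact permutation test over 48620 regroupings, p = 0.882). The sign of that difference turned when any of 6 single libraries was left out, and on the reads of the normalised table.

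**Figure D3:**
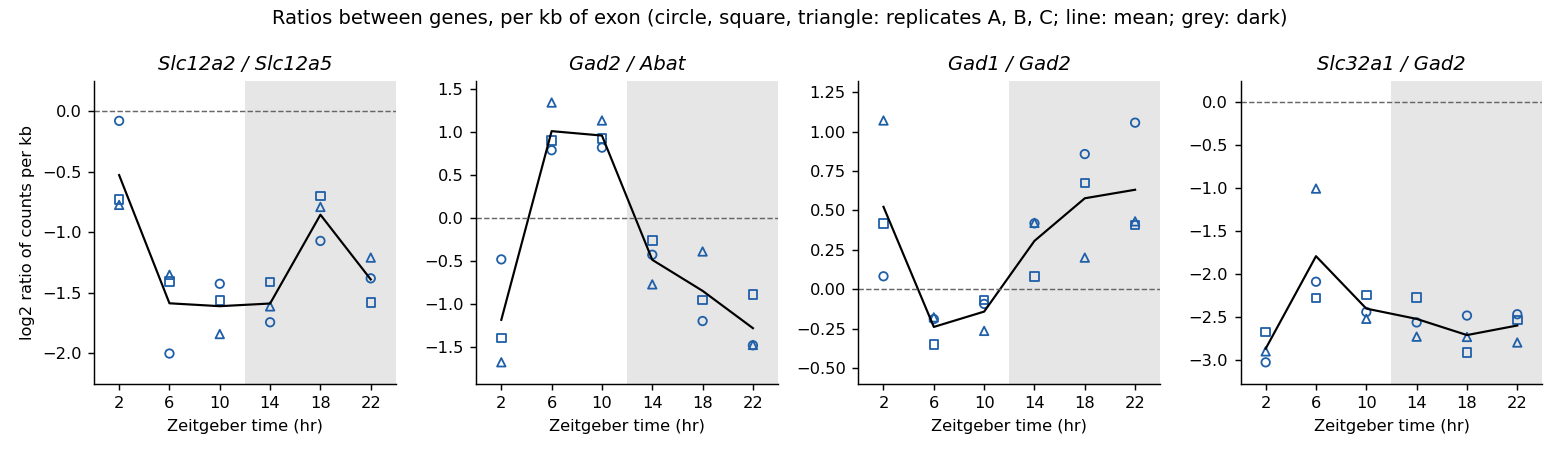
Log2 ratio of counts per kb of exon (y axes) between pairs of the genes in each of the 18 libraries against zeitgeber time in hours, with open symbols for replicates A, B and C, a line for the mean, a dashed line at equal levels and grey for the dark phase. The Slc12a2 to Slc12a5 ratio was highest at ZT2 and ZT18, and the Gad2 to Abat ratio was above equality only at ZT6 and ZT10.

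The joint test of the 3 differences inside pairs called 0 of the 7 genes, with 0.116% of all tested genes called. At an unadjusted p under 0.05 it held 3 of the 7 (Slc32a1, Slc6a11 and Slc12a5), and 11.7% of all tested genes, and DESeq2 called 1, against 4.95% of the genes to which it gave an adjusted p. Slc12a5 was the closest (unadjusted p = 0.000733, adjusted p = 0.105). Slc12a5 was 0.82 ± 0.20 (SE) higher at ZT14 than at ZT18 on the log2 scale (adjusted p = 0.0756) and 0.66 ± 0.20 higher at ZT22 than at ZT2 (unadjusted p = 0.00459, adjusted p = 1). In both pairs the replicates of the 2 timepoints did not overlap. With DESeq2 the ZT14 against ZT18 difference of Slc12a5 was 0.78 (adjusted p = 0.016).

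Taken singly, ZT14 minus ZT18 called 0 of the 7 genes (0.57% of all tested genes called). At an unadjusted p under 0.05 it held 1 of the 7, against 13.5% of all tested genes, and DESeq2 called 1, against 5.17%. ZT22 minus ZT2 called 0 (background 0.0317%), with 2 at an unadjusted p under 0.05, Gad2 and Slc12a5 (3.59%), and 0 by DESeq2 (0.218%). ZT6 minus ZT10 called 0 (0.0475%), with 1 at an unadjusted p under 0.05, Slc32a1 (10.8%), and 0 by DESeq2 (1.48%). Slc32a1 was 1.00 ± 0.31 (SE) higher at ZT6 than at ZT10 on the log2 scale (unadjusted p = 0.00459, adjusted p = 0.334), and 0.44 without ZT6 replicate C. Gad2 was 0.34 ± 0.15 lower at ZT22 than at ZT2 (unadjusted p = 0.0397, adjusted p = 1). Abat had differences of -0.32 ± 0.25, -0.27 ± 0.25 and 0.21 ± 0.25 in the 3 pairs, each with an unadjusted p above 0.05, against its 1.68 between ZT2 and ZT10.

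**Figure D4:**
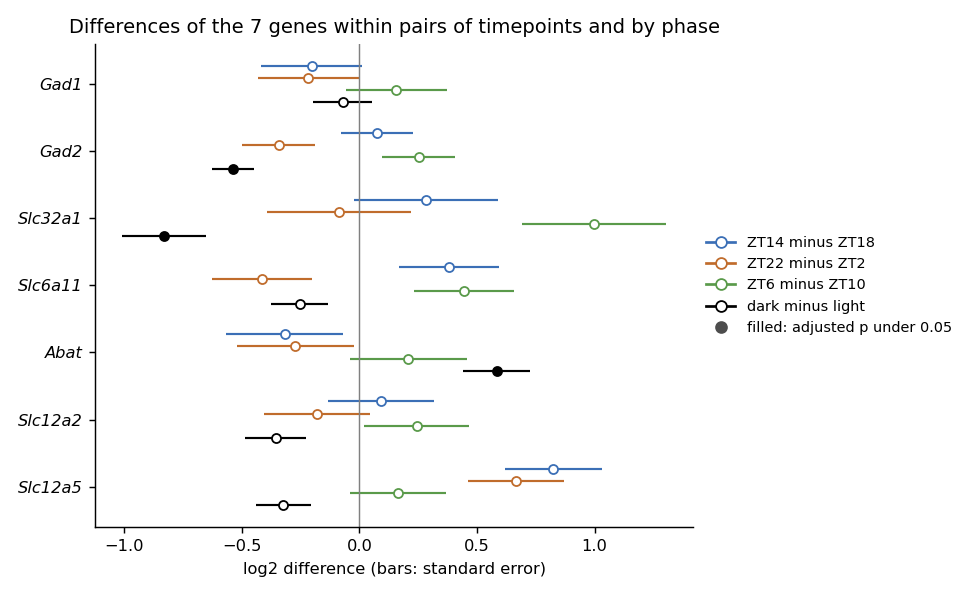
Log2 differences (x axis) of the 7 genes (y axis) inside the 3 pairs of timepoints and between the dark and the light timepoints, with bars for 1 standard error and filled points for an adjusted p under 0.05. Gad2, Slc32a1 and Abat passed in dark minus light, and no difference inside a pair passed.

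Taking the mean of the 3 dark timepoints against that of the 3 light timepoints, 3 of the 7 genes differed, with 23.8% of all tested genes called. Gad2 fell by 0.54 ± 0.09 (SE) on the log2 scale (369 CPM ± 59.5 in the dark against 546 ± 128 in the light, SD, n = 9 each, adjusted p = 0.000345). Slc32a1 fell by 0.83 ± 0.18 (29.1 ± 7.00 against 59.6 ± 44.0 CPM, adjusted p = 0.00254). These 2 are to be read against 9.56% of tested genes that were lower in the dark. Abat was 0.58 ± 0.14 higher in the dark (898 ± 206 against 687 ± 465 CPM, adjusted p = 0.00684). The dark and light libraries overlapped for all 3 genes. ZT2, a light timepoint, lay nearer to the dark ones than to ZT6 and ZT10, and Gad2 at ZT2 spanned 334 to 449 CPM and at ZT14 325 to 469 CPM.

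Both cotransporters lay near the threshold in this contrast, Slc12a2 at -0.36 ± 0.13 (SE, adjusted p = 0.0547) and Slc12a5 at -0.32 ± 0.12 (adjusted p = 0.0539). Both passed in each of 5 other settings, and each also passed when any of 4 single libraries was left out. For Slc12a2 those were ZT2 replicate C, ZT6 replicate A, ZT14 replicate B and ZT18 replicate C, with adjusted p from 0.0134 to 0.0449. For Slc12a5 they were ZT2 replicate A, ZT10 replicate A, ZT18 replicate C and ZT22 replicate B, with adjusted p from 0.0170 to 0.0463. Slc6a11 had -0.25 ± 0.12 (adjusted p = 0.144, but 0.00701 without ZT2 replicate C), and Gad1 -0.07 ± 0.12 (adjusted p = 0.726). The median over all tested genes was 0.13, so that 6 of the 7 genes lay below it and Abat above.

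The wider GABA pathway was read from 15 listed genes of uptake, breakdown and precursor supply, of which 9 changed with time, against 44% of all tested genes. The 3 named genes of glutamate uptake and of glutamine synthesis were, like Abat, lowest at ZT6 or ZT10. Slc1a3, the glial glutamate transporter GLAST, was highest at ZT2 (2185 CPM ± 306, SD, n = 3) and lowest at ZT10 (738 ± 46.3, adjusted p = 6.1e-06). Slc1a2, the glial transporter GLT-1, was highest at ZT22 (1136 ± 325) and lowest at ZT10 (409 ± 32.2, adjusted p = 0.000108). Glul, the glutamine synthetase of astrocytes, was highest at ZT22 (683 ± 128) and lowest at ZT6 (265 ± 20.3, adjusted p = 2.89e-05). Of the variance of the timepoint means, 89.4% (Slc1a3), 88.6% (Slc1a2) and 96.3% (Glul) lay between the pairs of timepoints. All 3 are genes of astrocytes, whose markers had the same low timepoints, and the part of astrocyte RNA in them was not tested.

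Slc6a13, which encodes the GABA transporter GAT2, was highest at ZT2 (38.2 ± 13.5 CPM) and lowest at ZT6 (3.60 ± 1.47, adjusted p = 0.000736). Of the 15 genes 7 were called cycling (29.9% of all tested genes), and 6 differed between dark and light (23.8%), 3 higher and 3 lower. In the joint test inside pairs edgeR called 0 of the 15 (0.116% of all tested genes called), with 2 at an unadjusted p under 0.05 (11.7%). DESeq2 called 1 (4.95% of the genes to which it gave an adjusted p), Slc6a12, a name given after its values were seen. Without the ZT6 and ZT10 libraries 4 of the 15 changed with time, against 28.6% of all tested genes.

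Of 15 listed genes of chloride transport and its kinases, 11 changed with time and 7 were called cycling, against 44% and 29.9% of all tested genes. Without the ZT6 and ZT10 libraries 8 of the 15 changed with time (28.6%). The joint test inside pairs called 0 of the 15 with edgeR (0.116% of all tested genes), with 2 at an unadjusted p under 0.05 (11.7%). With DESeq2 it called 1, Slc4a8 (4.95% of the genes given an adjusted p). The WNK kinases activate NKCC1 and inhibit the KCC cotransporters. Wnk2 was highest at ZT14 (55.3 ± 8.49 CPM) and ZT18 (45.4 ± 8.80) and lowest at ZT2 (12.5 ± 8.97) and ZT22 (12.0 ± 4.17, adjusted p = 0.000384). Of the variance of its timepoint means, 98.2% lay between the pairs of timepoints, where timepoint and cluster cannot be told apart. Wnk1, Wnk3 and Wnk4 did not pass (adjusted p = 0.0965, 0.0769 and 0.177), Wnk1 ranging from 70.3 to 112 CPM, Wnk3 from 19.4 to 38.3 and Wnk4 from 0.385 to 2.95 in timepoint means. Wnk1 passed without ZT6 replicate A or ZT18 replicate C (adjusted p = 0.0394 and 0.00506), and Wnk3 without replicate C of ZT6, ZT18 or ZT22 (0.0265, 0.0427 and 0.0485).

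Among bicarbonate-coupled chloride carriers of the list, Slc4a8 was called in ZT14 minus ZT18 (background 0.57%), the only call of the list inside a pair. It was 1.33 ± 0.21 (SE) higher at ZT14 (43.4 CPM ± 4.72, SD, n = 3) than at ZT18 (17.2 ± 2.70, adjusted p = 0.0242), in the same direction as Slc12a5. Slc4a10 was highest at ZT2 (326 ± 78.2 CPM) and lowest at ZT10 (81.0 ± 10.4, adjusted p = 5.17e-06). Slc4a3, a chloride-bicarbonate exchanger, was highest at ZT14 (59.8 ± 4.95) and lowest at ZT2 (18.6 ± 8.51, adjusted p = 0.00018). The share of the variance of the timepoint means that lay between the pairs was 93.5% for Slc4a10 and 97.4% for Slc4a3. For Slc4a8 it was 2.4%.

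On the receiving side, 7 genes of the inhibitory synapse were listed and 6 tested, the seventh being Slc6a5. All 6 changed with time and 5 were called cycling, against the same 44% and 29.9% of all tested genes, and 5 of the 6 changed without the ZT6 and ZT10 libraries (28.6%). In the joint test inside pairs edgeR called 0 of the 6 (0.116% of all tested genes called), with 2 at an unadjusted p under 0.05 (11.7%). DESeq2 called 1 (4.95% of the genes to which it gave an adjusted p), Gabbr2, also named after its values were seen. Gphn, which encodes the scaffold gephyrin, was highest at ZT22 (135 ± 8.79 CPM) and ZT2 (131 ± 16.1) and lowest at ZT10 (49.7 ± 10.3, adjusted p = 3.45e-05). Nlgn2, the adhesion protein neuroligin 2 of inhibitory synapses, and Gabbr1, a GABA-B receptor subunit, were instead highest at ZT6, with 127 CPM ± 3.27 and with 399 to 439 CPM, against 46.6 ± 2.62 at ZT22 for Nlgn2 (adjusted p = 1.59e-05) and 193 ± 55.0 at ZT18 for Gabbr1 (adjusted p = 0.00025). Gphn and Nlgn2 thus differed in opposite directions between ZT22 and ZT6, which lie in different clusters of libraries. Differences between the pairs made up 99.7% (Gphn), 91.6% (Nlgn2) and 87.5% (Gabbr1) of the variance of the timepoint means.

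**Figure D5:**
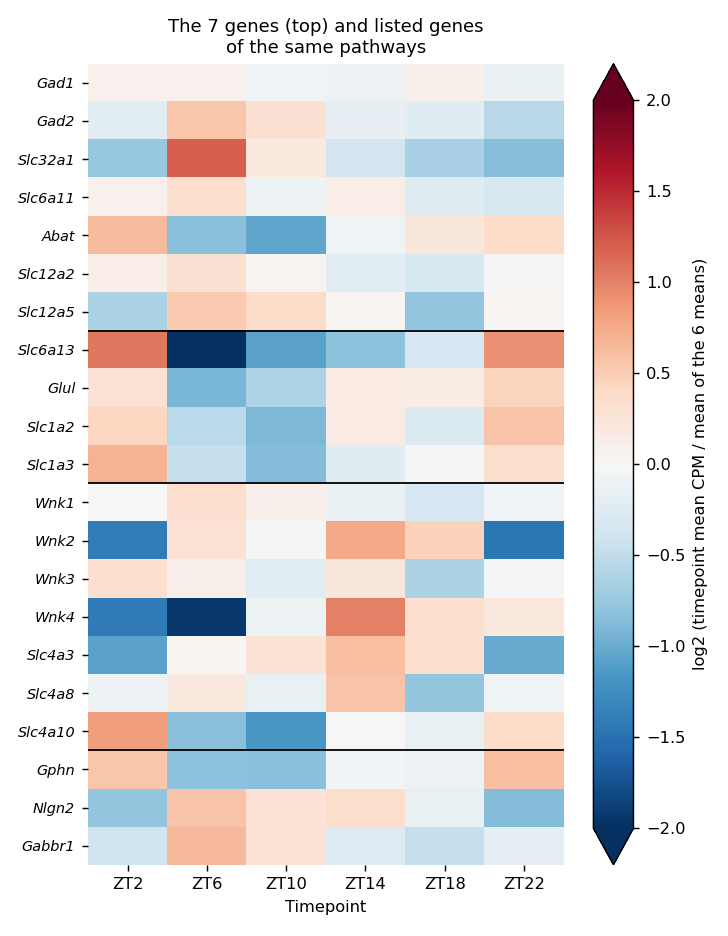
Colour gives the log2 ratio of each timepoint's mean CPM to the mean of the 6 timepoint means (scale cut at -2 and 2) for the 7 genes (top block) and the genes named here from the 3 lists (blocks below: GABA uptake and precursors, chloride transport, inhibitory synapse), with timepoints as columns. Gad2, Slc32a1, Slc12a5, Nlgn2 and Gabbr1 were high at ZT6, where Abat, Glul, Slc4a10 and Gphn were low.

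Likeness between libraries was described after the mean of each pair of timepoints had been subtracted from log2 CPM, so that the clusters could not set it. Over the 18 libraries, which share their depth and tissue composition across genes, Gad1 went most with Abat among the 7 (Pearson r = 0.75), and Gad2 with Slc6a11 (r = 0.72) and Slc32a1 (r = 0.61). Slc12a2 and Slc12a5 had r = 0.23. Among 9573 genes with a mean of at least 10 CPM, the 3 closest to Slc12a5 were Ctdnep1 (r = 0.92), Dnm1 (0.91) and Zbtb7a (0.89). Those closest to Gad2 were Clcn5 (0.89), Alcam (0.88) and Cadps2 (0.88), and Clcn5 was also second for Slc6a11 (0.87), after Bclaf1 (0.88) and before Itgb8 (0.86). Wdr6 was first for Abat (0.93, followed by Ankrd6 with 0.89 and Chst8 with 0.83) and second for Gad1 (0.83, after 2410131K14Rik with 0.87 and before Klhl7 with 0.82). Slc32a1 went with Picalm (0.88), Ddx6 (0.87) and Etnk1 (0.87), and Slc12a2 with Rp9 (0.84), Lrp1b (0.83) and Ythdf3 (0.83).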

How the data were processed

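SCN tissue of 18 pooled replicates was profiled by RNA-seq on polyA RNA. Per the labels and methods, the authors mapped trimmed reads to mm10 (GRCm38) with GSNAP and counted them per gene with HTSeq 0.5.4p1, and the 3 lanes of a replicate were combined. The main values are the deposited raw counts. The authors also deposited DESeq2-normalised values (a signal, counts divided by 1 factor per library), from which whole reads were recovered for 100% of values (tolerance 0.001). The 2 tables share 26118 genes.

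Counts were tested with edgeR 4.0.16 (R 4.3.3, TMM normalisation, quasi-likelihood F tests with Benjamini-Hochberg adjustment over the 18941 genes detected (1 read) in more than 6 replicates, threshold 0.05). All 18 libraries shared 1 fit, with no covariate. CPM are on TMM-scaled library sizes. JTK_CYCLE was written anew (Bonferroni over 6 lags, no adjustment over genes, threshold 0.05). The balance was tested by permutation (numpy 2.4.6). DESeq2 1.42.0, its size factors, other filters, recovered reads, a replicate block and single libraries left out were alternatives. The scripts were tested on simulated data.

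Replicates were separate pools, so p-values measure the spread between pools. Per-kb values use the union of GENCODE M21 exons. The gene and marker lists, and the rule for naming list genes (the 4 smallest time p-values of each list, any gene called inside a pair, and genes chosen by name such as the Wnk genes), were chosen with earlier results of these data known. Some genes that this rule takes are not reported here, but they stay in the counts over each list.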

Additional observations from a re-analysis of the deposited data

Results flagged for a closer look

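Among the 9 light libraries, the level of Slc32a1 in ZT6 replicate C (167.34 CPM) stood apart: its gap to the next highest library was 0.670 of the whole range, above Dixon's 95% limit for 9 values. This was 1 of 16 groups of 9 values looked at, and chance alone flags about 1 in 20 groups. The timepoints differ within that group, so the limit is only a guide. The change of Slc32a1 with time, its dark against light difference and its cycling call all passed without this library (edgeR, and exact JTK_CYCLE p = 0.0253).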

How the results depend on the processing

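Of the 7 genes, 3 differed between dark and light, and this count was 5 with recovered reads, with a replicate block, with DESeq2 size factors and with a filter of at least 10 reads in every replicate, 6 with DESeq2, and 3 to 5 when single libraries were left out (5 without ZT2 replicate C or ZT18 replicate C). DESeq2 called 1 gene in the joint test inside pairs. In ZT14 minus ZT18 DESeq2 and the filter of at least 10 reads each called 1, Slc12a5 (adjusted p = 0.016 and 0.0474). Without the ZT6 and ZT10 libraries, a setting added after seeing the data, 1 gene changed with time. Otherwise 4 to 5 changed with time, 4 to 5 differed between pairs and 3 to 5 were called cycling when single libraries were left out. Slc6a11 passed the time test with DESeq2 (adjusted p = 0.0249) and with the filter of at least 10 reads (0.0485), Wnk1 with recovered reads (0.0313) and DESeq2 (0.0375), and Wnk3 with DESeq2 (0.0183). The dark minus light balance was 0.00252 on recovered reads and on the normalised values as deposited, and -0.13 to 0.11 when single libraries were left out. Over the same libraries ZT22 minus ZT2 was -0.24 to 0.13 for Slc32a1, and ZT14 minus ZT18 was -0.037 to 0.21 for Gad2 and -0.051 to 0.32 for Slc12a2. The replicate letters are not a pairing in the labels, and the deviations of same-letter libraries had a median correlation of -0.003 over 45 pairs (-0.19 to 0.10), 9 of 18 libraries correlating best with their own letter. The cause of these shifts was not tested. At 3 pools a timepoint, a difference inside a pair could reach an exact permutation p of no less than 0.1.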
